A study of Mus musculus with 9 samples.

Results

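The Hox genes of the 4 mouse clusters were followed along the small intestine, as every gene whose symbol is Hoxa, Hoxb, Hoxc or Hoxd with a paralogue number from 1 to 13. Of the 39 such genes in the RefSeq gene table, 33 had a probe set annotated to that gene alone, out of 18193 genes measured in this way. These were 9 genes of the Hoxa cluster, 9 of Hoxb, 7 of Hoxc and 8 of Hoxd. The remaining Hox genes were not analysed here. The arrays measured RNA from scraped intestinal mucosa of male C57Bl/6J mice, which were 9 weeks old when they started 2 weeks on a high-fat diet. All groups ate a high-fat diet, in which the fat came from palm oil in HF-PO, from olive oil in HF-OO and from safflower oil in HF-SO, with a P/S value that rises in that order in the labels. Each intestine was cut into 3 equal parts, SI1 at the stomach end, SI2 in the middle and SI3 at the distal end. The RNA of 6 mice was pooled for each diet and part, which gave 9 arrays, and a segment was compared over 3 pools that differ in diet. The spread between pools therefore also holds any effect of diet, and the variation between single mice was not measured.

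Hox genes encode transcription factors that bind DNA through a homeodomain and give cells their position along the head-to-tail axis. They lie in clusters of related genes, and genes of the same number in different clusters are paralogues. Low-numbered genes are switched on nearer the head and high-numbered genes nearer the tail, in the order in which they lie on the chromosome. In the developing gut Hox genes are best known from the mesoderm around the epithelium, where their nested domains mark regions of the tube, and some are also transcribed in the epithelium. The related ParaHox genes Pdx1 and Cdx1 and Cdx2 pattern the gut epithelium itself.

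Most Hox genes were near the background of the arrays in adult mucosa. As a measure of that background, 71 odorant and pheromone receptor genes, taken as silent in gut, had a median signal of 21.9 and a 95th percentile of 76.6 in units of MAS5 signal, a linear intensity. The 33 Hox genes had mean signals over the 9 arrays between 5.21 (Hoxb13) and 443 (Hoxa5), with a median of 31.0, against a median of 194.5 over all genes. Mean signals of 7 Hox genes exceeded the 95th percentile of the receptor genes, namely Hoxa5, Hoxa9, Hoxb2, Hoxb3, Hoxb6, Hoxc6 and Hoxd8. Segment by segment, 7 Hox genes stood above that level in SI1, 7 in SI2 and 10 in SI3, as shown in the plot of signals by cluster. Taken within each segment, the 95th percentile of the receptor genes was 96.1 in SI1, 74.8 in SI2 and 71.0 in SI3. Against these levels the counts were 5, 7 and 10. Hoxb5, Hoxb6 and Hoxb9 stood above the level of 76.6 in SI3 alone of the 3 segments. In SI2 the 7 included Hoxc4, at 96.4 ± 19.8 (SD, n = 3 pools). Next above Hoxb13 came Hoxd10, Hoxa7, Hoxd11 and Hoxd12, at mean signals of 6.47, 8.72, 8.98 and 9.06.

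**Figure D1:**
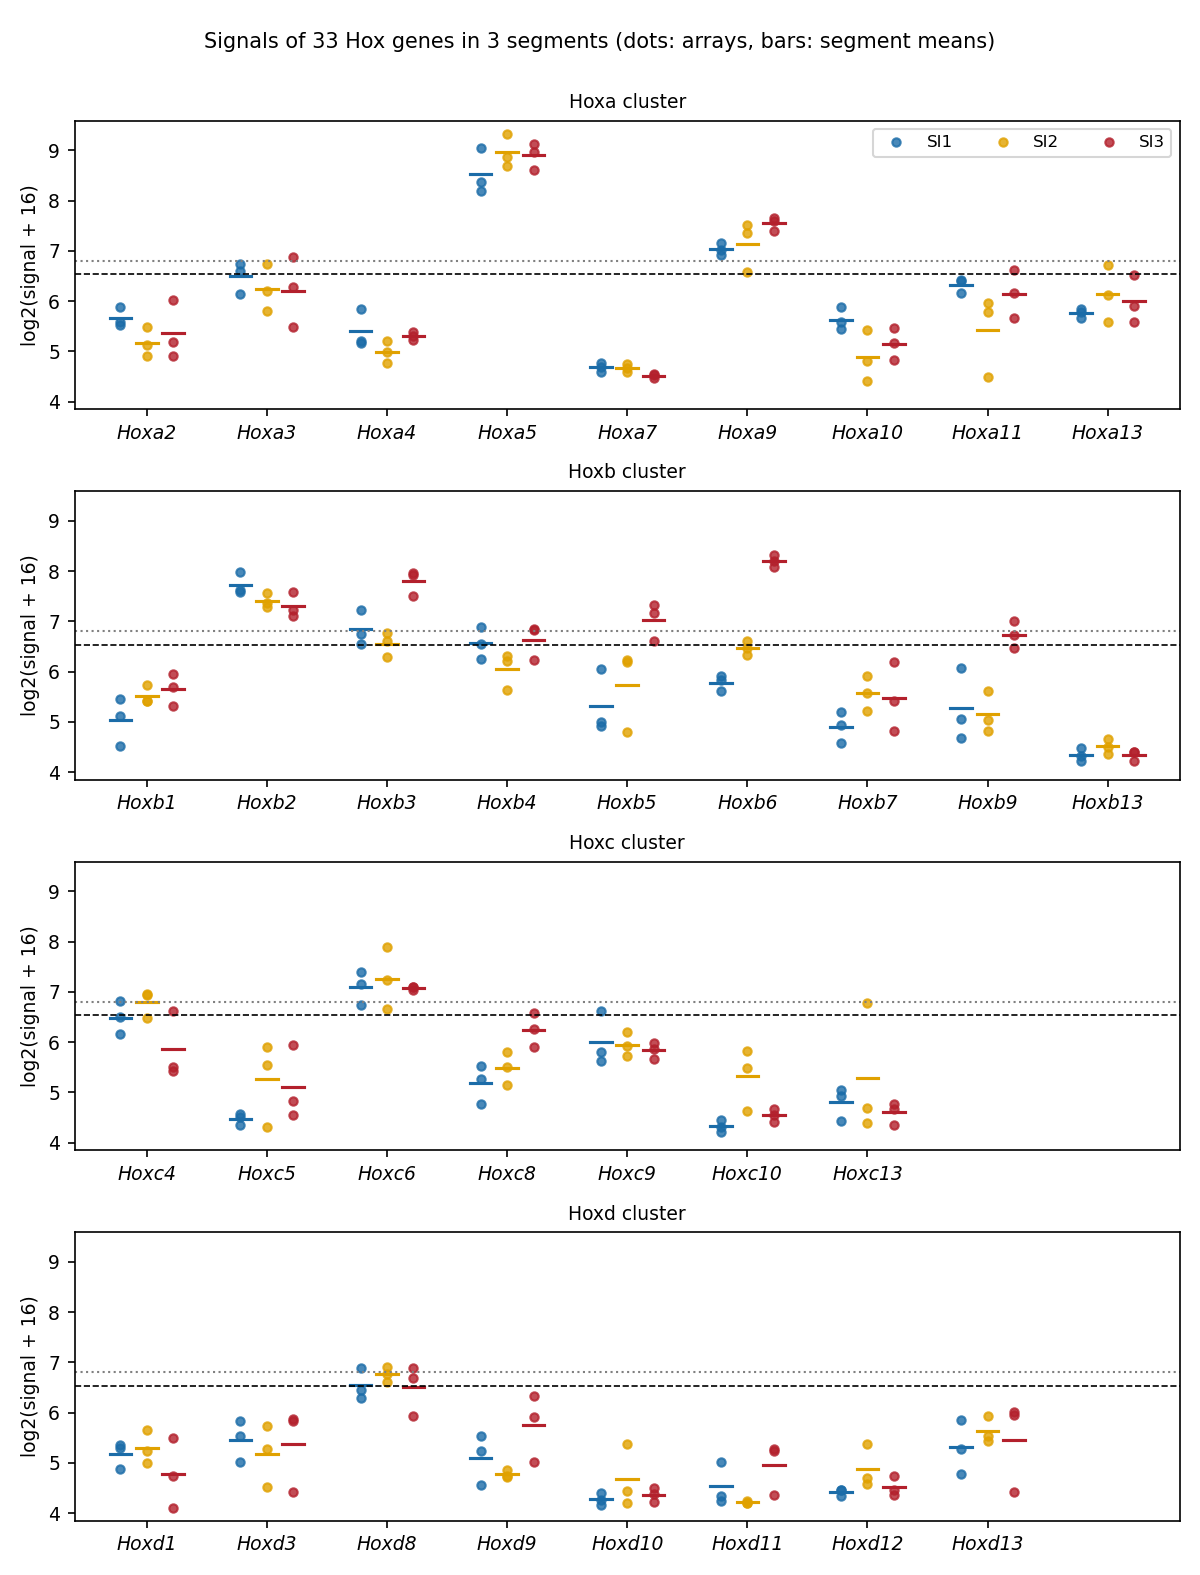
Signals of the 33 Hox genes as log2(signal + 16), 1 panel per cluster, with a dot for each array, coloured by segment, and a bar at the segment mean. The dashed line is the 95th percentile of receptor genes taken as silent (a signal of 76.6) and the dotted line the mean level needed for testing (6.80). Most genes lie below both lines, and in the Hoxb panel the SI3 dots of Hoxb3, Hoxb5, Hoxb6 and Hoxb9 stand above the dots of SI1 and SI2.

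Segments were tested with limma on log2(signal + 16), with the diet pool as a block, over probe sets whose mean log2 value reached the median of all probe sets, 6.80. A gene read by more than 1 probe set was represented by its brightest. Of the 33 Hox genes, 6 passed this filter (Hoxa5, Hoxa9, Hoxb2, Hoxb3, Hoxb6 and Hoxc6) and 27 did not. At an adjusted p under 0.05, 2 of the 6 were higher in SI3 than in SI1, where 25.2% of all genes tested were higher. By limma 0 of the 6 were lower, beside 20.4% of all genes, and 1 at an unadjusted p under 0.05. In SI2 against SI1, 1 of the 6 was higher beside a background of 7.23%, and 0 were lower by limma beside 7.83%, also 0 at an unadjusted p under 0.05. From SI2 to SI3, 2 were higher beside 11.5% and 0 were lower by limma beside 11.9%, again 0 at an unadjusted p under 0.05. Over all 3 segments 2 of the 6 differed by the F test, where 42% of all genes did. With 6 genes tested, the results lie in single members rather than in the share of the family.

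Hoxb6 had the largest difference of the family. Its signal was 41.1, 32.8 and 44.1 in SI1 (HF-PO, HF-OO and HF-SO in that order here and below), 82.0, 72.8 and 64.5 in SI2, and 303.9, 255.4 and 279.7 in SI3. The 3 segments did not overlap, and SI3 alone rose clear of the level of the silent receptor genes, at 3.65 times their 95th percentile. Hoxb6 rose by 2.42 (SE 0.11) on the log2(signal + 16) scale from SI1 to SI3, a 5.35-fold difference, with an adjusted p = 1.26e-05 by limma, and in 3 of 3 pools. The pseudocount of 16 shrinks this fold, since the SI1 signals are low. From SI1 to SI2 it rose by 0.69 (adjusted p = 0.00848 by limma), and from SI2 to SI3 by 1.73 (adjusted p = 0.000222 by limma). The first step was not called in the test without a filter (adjusted p = 0.0713 by limma), nor without the HF-PO pool or without the HF-OO pool, where 0 Hox genes were higher in SI2. Among 10977 genes tested, the rise of Hoxb6 from SI1 to SI3 was the 60th largest.

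Hoxb6 passed the filter through SI3, since its signals in SI1 and SI2 lay below the filter's level of 95.6, so its place among the genes tested depended on its being high there. Its mean log2 value was 6.82 against the 6.80 required. With all probe sets tested and no filter, its difference between SI3 and SI1 had an adjusted p = 0.000507 by limma. Of the first 13 other settings tried it was tested in 8 and called in those 8, with differences from 1.73 to 2.48. In the other 5 its level fell below the recomputed filter and it was not tested. In 5 settings added after the data were seen, which keep it among the probe sets tested, it was called with differences from 2.39 to 2.81.

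Hoxb3 was the other member that rose. Its signal was 92.1, 77.9 and 134.3 in SI1, 62.6, 81.9 and 93.1 in SI2, and 166.7, 226.0 and 232.8 in SI3. The SI3 arrays lay above all others, while SI1 and SI2 overlapped. Hoxb3, like Hoxb6, passed the filter through its high SI3 signals. In SI2, and in SI1 of HF-PO and HF-OO, its signals lay below the filter's level of 95.6. The rise from SI1 to SI3 was 0.95 (SE 0.14, adjusted p = 0.00185 by limma), and that from SI2 to SI3 was 1.24 (adjusted p = 0.00160 by limma), each in 3 of 3 pools. With no filter the adjusted p by limma was 0.0157 from SI1 to SI3 and 0.0188 from SI2 to SI3. Between SI1 and SI2 the difference was -0.29 (adjusted p = 0.209 by limma, 95% interval -0.62 to 0.04). A second Hoxb3 probe set gave a difference of 0.82 from SI1 to SI3 (adjusted p = 0.0174 by limma, and 0.0700 without a filter). Its means were 109, 68.5 and 200.2 in SI1, SI2 and SI3. Without the HF-SO pool that second probe set was the brighter and stood for the gene, and the adjusted p by limma was 0.0914. With the first probe set kept it was 0.0154.

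Hoxb5 and Hoxb9 did not pass the filter and were singled out after their values were seen. Hoxb5 had signals of 14.2, 15.8 and 50.1 in SI1, 11.8, 57.4 and 59.0 in SI2, and 127.7, 81.8 and 145.1 in SI3. Hoxb9 had 9.7, 17.5 and 51.6 in SI1, 33.3, 16.7 and 12.2 in SI2, and 72.7, 113.4 and 90.3 in SI3. In both genes the SI3 arrays lay above all SI1 and SI2 arrays, but the means in SI3 were at 1.54 and 1.20 times the 95th percentile of the silent receptor genes. In the test without a filter, Hoxb5 rose by 1.72 from SI1 to SI3 (SE 0.37, adjusted p = 0.0321 by limma), while Hoxb9 differed by 1.46 (SE 0.41) with an adjusted p = 0.0669 by limma. The 71 receptor genes taken as silent had differences between SI3 and SI1 from -0.93 to 1.60. That range holds the values of Hoxb9 and Hoxb3, while those of Hoxb5 and Hoxb6 lay above it. Among the receptor genes, 7 had SI3 arrays wholly above those of SI1 and 5 wholly below. Without the filter, 3 of the 33 Hox genes were called higher in SI3 than in SI1, Hoxb3, Hoxb5 and Hoxb6, where 8.67% of all genes were. By limma 0 were lower, beside 9.63% of all genes, and 1 at an unadjusted p under 0.05. Between SI2 and SI3, 2 of the 33 were higher without the filter, Hoxb3 and Hoxb6, beside 1.92% of all genes, and 0 were lower by limma beside 3.38%, with 2 at an unadjusted p under 0.05.

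**Figure D2:**
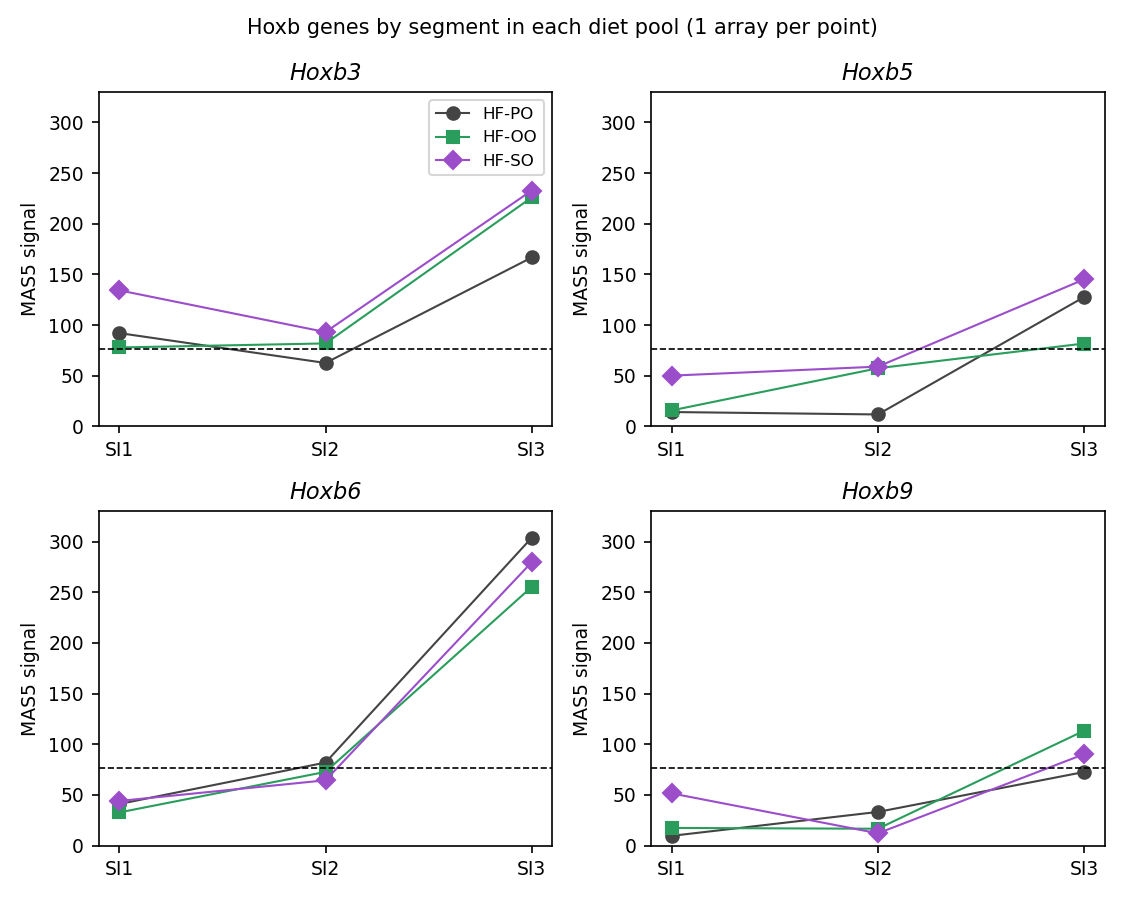
MAS5 signal of Hoxb3, Hoxb5, Hoxb6 and Hoxb9 by segment, with 1 line per diet pool and 1 array per point. The dashed line is the 95th percentile of the silent receptor genes. All 3 lines of each gene climb from SI2 to SI3, and those of Hoxb6 run close together, ending between 255.4 and 303.9.

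The other Hoxb genes did not pass a test. Hoxb2, which neighbours Hoxb3 in the cluster, had signals of 176.0, 181.8 and 236.8 in SI1, 173.0, 149.9 and 139.7 in SI2, and 122.6, 134.5 and 176.0 in SI3. Its difference between SI3 and SI1 was -0.42 (95% interval -0.77 to -0.07, adjusted p = 0.0552 by limma), negative in 3 of 3 pools, and it was called lower in 3 of the alternative settings. Hoxb4, between Hoxb3 and Hoxb5 in number, differed by 0.07, with SI3 signals of 59.1, 98.9 and 97.8 that overlapped those of SI1 at 103.0, 77.6 and 60.7. Hoxb7 differed by 0.57 and Hoxb1 by 0.63, at signals of at most 56.9 and 46.4, and Hoxb13, whose signals lay between 2.8 and 9.4, by 0.00. Along the chromosome the differences thus did not follow one slope with number. They were 0.63, -0.42, 0.95, 0.07, 1.72, 2.42, 0.57, 1.46 and 0.00 for Hoxb1, Hoxb2, Hoxb3, Hoxb4, Hoxb5, Hoxb6, Hoxb7, Hoxb9 and Hoxb13.

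By cluster, the median difference between SI3 and SI1 was 0.63 over the 9 Hoxb genes and 0.60 without Hoxb6. Of the 9, 8 lay above 0 and 1 below, but Hoxb4 at 0.07 and Hoxb13 at 0.002 were close to 0. The median was -0.03 over the 24 genes of the other clusters (11 above and 13 below), against 0.03 over all genes measured. It was -0.17 for Hoxa, -0.03 for Hoxc and 0.10 for Hoxd. The Hoxb gene had the highest difference of its paralogue group in 7 of the 9 groups with a Hoxb member, the exceptions being groups 2 and 13. In group 6, Hoxb6 differed by 2.42 and Hoxc6 by -0.03, or by 0.28 with its second probe set past the filter. In group 3, Hoxb3 differed by 0.95, Hoxa3 by -0.29 and Hoxd3 by -0.09. The other Hoxa3 probe sets, all below the level of silent genes, differed by 0.00, 0.41 and 0.85 and were not called, so the sign for Hoxa3 depended on the probe set. In group 9, Hoxb9 differed by 1.46, Hoxd9 by 0.65, Hoxa9 by 0.52 and Hoxc9 by -0.17. By number, the median was -0.29 for paralogues 1 to 3 (7 genes), 0.22 for 4 to 8 (12 genes) and 0.13 for 9 to 13 (14 genes). These medians describe the genes and were not tested, because most of the values lie at background, where the pseudocount draws differences towards 0. Members of a cluster share a chromosome segment and are not replicates.

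**Figure D3:**
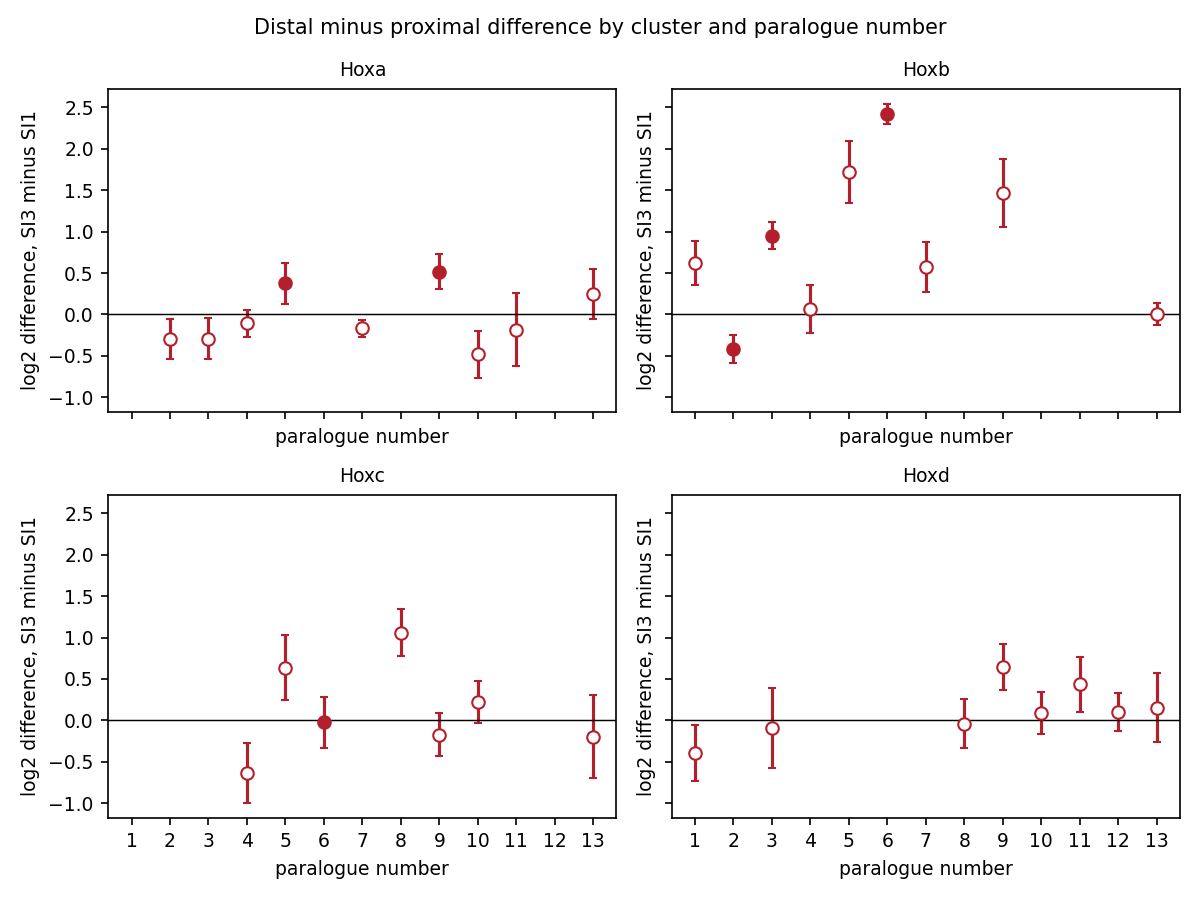
Difference of log2(signal + 16) between SI3 and SI1 against paralogue number, 1 panel per cluster, with bars of 1 standard error from the fit without a filter. Filled points passed the filter and open points did not. The Hoxb panel holds the 3 highest values, Hoxb6 at 2.42, Hoxb5 at 1.72 and Hoxb9 at 1.46.

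Arrays of SI3 lay wholly above those of SI1 in 6 of the 33 Hox genes (18.2%), where 22.9% of all genes did, and wholly below in 1 (3.03%), where 19.6% of all genes did. The 6 were Hoxa9, Hoxb3, Hoxb5, Hoxb6, Hoxb9 and Hoxc8, and the 1 was Hoxa7, whose signals were between 6.3 and 11.2 throughout. From SI2 to SI3, 8 genes (24.2%) were wholly higher beside 17.3% of all genes, and 1 (3.03%) wholly lower beside 15.3%. Between SI1 and SI2 the counts were 4 higher (12.1%, background 15%) and 4 lower (12.1%, background 13.7%). Many Hox arrays are at background, where such an order has little meaning.

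In the Hoxa cluster, Hoxa5 and Hoxa9 were the members above background. Hoxa5 is the best known of them in the gut, where it acts in the mesenchyme during development. Its signal was the highest of the family, at 314.1, 277.1 and 511.3 in SI1, 395.0, 629.3 and 452.3 in SI2, and 375.5, 488.0 and 546.5 in SI3. The segments overlapped, and SI3 differed from SI1 by 0.37 (95% interval -0.14 to 0.89, adjusted p = 0.202 by limma). Its probe set is of a kind that the array's maker marks as open to binding other transcripts. The other Hoxa5 probe set went the opposite way, from 93.7 ± 26.6 in SI1 and 96.7 ± 5.41 in SI2 to 51.2 ± 14.3 in SI3, a fall of 0.70 on the log2 scale (adjusted p = 0.0320 by limma without a filter). The level and direction of Hoxa5 therefore depended on the probe set.

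Hoxa9 had signals of 114.3, 126.8 and 104.3 in SI1, 148.0, 166.1 and 79.4 in SI2, and 153.3, 184.4 and 177.6 in SI3. The SI3 arrays lay above those of SI1, and the difference of 0.52 (95% interval 0.08 to 0.96) had an adjusted p = 0.0588 by limma, in 3 of 3 pools. It passed the threshold with a pseudocount of 64 (difference 0.40, adjusted p = 0.0459 by limma), with arrays centred on their medians (0.56, adjusted p = 0.0334 by limma) and in some other settings, while its adjusted p over all settings ran from 0.0195 to 0.167. Its second probe set again ran the other way, with means of 64.3, 22.9 and 8.63 in SI1, SI2 and SI3, a difference of -1.67 (adjusted p = 0.0567 by limma without a filter). The remaining Hoxa genes had segment means between 6.90 and 75.9, at or below the level of silent genes. Hoxa10 and Hoxa11 were lower in all SI2 arrays than in any SI1 array, with signals of 5.2, 12.2 and 27.2 against 27.4, 31.8 and 43.2 for Hoxa10. Neither was called. The dimmer Hoxa4 probe set by log2 value was lower in SI3, at 15.9 ± 9.59 against 48.0 ± 8.39 in SI1 (adjusted p = 0.0463 by limma without a filter), while the one that stood for the gene differed by -0.10.

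In the Hoxc cluster, Hoxc6 was above background in all segments and, by its brightest probe set, did not pass a test between any pair. That probe set is of the same kind as the one used for Hoxa5. Its signals were 91.1, 126.9 and 153.0 in SI1, 135.1, 221.6 and 85.5 in SI2, and 120.7, 120.2 and 115.5 in SI3. The groups overlapped, and the difference between SI3 and SI1 was -0.03 (95% interval -0.67 to 0.62, adjusted p = 0.946 by limma), and it became 0.01 with arrays centred on their medians and 0.14 without the HF-SO pool. Hoxc8 had low signals that were higher in SI3, at 43.9, 60.4 and 79.3 against 22.3, 11.1 and 30.4 in SI1, a difference of 1.06 with an adjusted p = 0.0603 by limma without a filter. Hoxc4 stood at 27.2, 29.3 and 83.0 in SI3, 97.2, 55.2 and 74.2 in SI1 and 108.6, 107.1 and 73.5 in SI2, so the SI3 array of HF-SO stood apart from the other two and the segments overlapped. Hoxc5, Hoxc9, Hoxc10 and Hoxc13 had segment means between 4.13 and 51.7, below the level of silent genes.

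In the Hoxd cluster, Hoxd8 was the member above background, at 62.7, 71.6 and 101.9 in SI1, 105.0, 81.7 and 93.1 in SI2, and 87.6, 102.1 and 45.0 in SI3. The arrays of the 3 segments overlapped and the difference between SI3 and SI1 was -0.04 without a filter (adjusted p = 0.948 by limma). Its dimmer probe set fell by 1.43, from 72.7 ± 2.16 in SI1 to 18.6 ± 12.6 in SI3 (adjusted p = 0.0384 by limma without a filter). Hoxd9 had signals of 16.5, 64.6 and 44.3 in SI3 and between 7.7 and 30.1 in the other segments. The other Hoxd genes, Hoxd1, Hoxd3 and Hoxd10 to Hoxd13, had segment means between 2.60 and 34.3.

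Each diet had 1 array in each segment, so its values are given without a test. A Hox gene was taken as set apart in an array whose log2(signal + 16) lay above both of the remaining diets, or below both, by 1.5-fold or more. This held for 3 of 54 pairs of a gene and an array among the 6 genes past the filter (5.56%), beside 1.55% over all genes past it. They were Hoxa5 in SI1 of HF-SO (1.60-fold higher), Hoxa9 in SI2 of HF-SO (1.72-fold lower) and Hoxc6 in SI2 of HF-OO (1.57-fold higher). Among the 27 genes below the filter it held for 34 of 243 pairs (14%), beside 17.1% of all genes below the filter. Pairs set apart were thus commoner at low signal. The 6 Hox genes past the filter had mean signals from 129.7 to 443, against a median of 666 over all genes past it. The shares of 5.56% and 1.55% therefore come from genes of unlike signal level. Hoxb6, Hoxb3 and Hoxb2 were not set apart in any diet or segment. Hoxb5 was lower in SI2 of HF-PO, at 11.8 against 57.4 and 59.0, and higher in SI1 of HF-SO, at 50.1 against 14.2 and 15.8.

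Hox proteins bind DNA together with TALE cofactors, the Pbx, Meis and Pknox proteins. Of the 8 cofactors measured 5 were tested. From SI1 to SI3 1 fell, a share near the 20.4% of all genes tested that fell. By limma 0 rose, beside 25.2% of all genes tested. Meis2 fell from 361 ± 59.9 in SI1 to 104.9 ± 15.1 in SI2 and 55.1 ± 10.8 in SI3 (SD, n = 3 pools), a fall of 2.41 (SE 0.17, adjusted p = 7.33e-05 by limma). It passed the filter through SI1, and its SI3 signal lay below the 95th percentile of silent genes, so the size of the difference depends on background and the pseudocount. Pbx2 and Pknox1, at means of 677 and 525 over the arrays, differed by -0.01 and -0.06 and were not called. Meis1, Pbx4 and Pknox2 did not pass the filter. Meis1 and Pknox2 were at the level of silent genes, while Pbx4 had means of 93.8 ± 26.4 in SI1, 15.0 ± 12.8 in SI2 and 9.57 ± 4.86 in SI3, a difference of -2.09 that was not tested.

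Of the 6 ParaHox genes, 3 were tested, while Gsx1, Gsx2 and Cdx4 were at the level of silent genes. Pdx1, which acts in the duodenum and the pancreas, fell by 5.91 (SE 0.13, adjusted p = 1.06e-06 by limma), from 1983 ± 143 in SI1 to 36.9 ± 7.15 in SI2 and 17.2 ± 1.85 in SI3. It passed the filter through SI1, and its signals in SI2 and SI3 lay below the 95th percentile of silent genes, so the size of this difference depends on background and the pseudocount. Pancreas genes were also high in SI1, with summed signals between 24090 and 30477 there and between 168.5 and 383 in SI3. The part of pancreas tissue in the Pdx1 signal was not tested. Cdx1, which acts in intestinal epithelium and is known to act upstream of Hox genes in the embryo, rose from 1232 ± 77.4 in SI1 to 1771 ± 97.5 in SI2 and 3108 ± 203 in SI3, by 1.32 in all (SE 0.08, adjusted p = 4.19e-05 by limma). Cdx1 thus rose at both steps, and a link between its level and that of the Hox genes was not tested. Cdx2, at 1168 ± 48.9 in SI1 and 999 ± 140 in SI3, differed by -0.23 (adjusted p = 0.119 by limma).

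Polycomb proteins hold Hox clusters silent and trithorax proteins keep active genes on. All 19 Polycomb genes measured were tested, and 4 rose and 3 fell between SI1 and SI3, where 25.2% of all genes tested rose and 20.4% fell, so neither share exceeded the background. The median was 0.16 against 0.07 over all genes tested. Pcgf2 rose by 0.77, Rnf2, a ubiquitin ligase of Polycomb complex, by 0.55, and Jarid2 from 933 ± 22.9 to 1350 ± 51.0, while Phc1 fell by 0.68. Of 8 trithorax genes and demethylases of the Polycomb mark, 1 rose and 1 fell, with a median of 0.06. Neither of these shares exceeded that of all genes tested. The demethylase Kdm6b fell by 1.09, from 2190 ± 121 to 1025 ± 100.3, and Ash2l rose by 0.54.

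Retinoic acid switches on Hox genes in the embryo. Of 15 genes measured for its synthesis, breakdown and receptors, 10 were tested, and 6 fell and 0 rose by limma from SI1 to SI3, with a median of -0.57. Over all genes tested, 20.4% fell and 25.2% rose, with a median of 0.07. The synthesising enzyme Aldh1a3 fell by 2.87, from 1138 ± 47.4 to 145.8 ± 45.2, and Aldh1a2 fell by 1.31. Rdh10, which makes its precursor, fell by 1.01, and Cyp26b1, which breaks retinoic acid down, fell from 183 ± 26.4 to 85.7 ± 26.6. The receptors Rara, Rarg, Rxra and Rxrb were not called, and Rarb was at the level of silent genes. These lists are described beside the Hox genes, and a link to their levels was not tested.

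**Figure D4:**
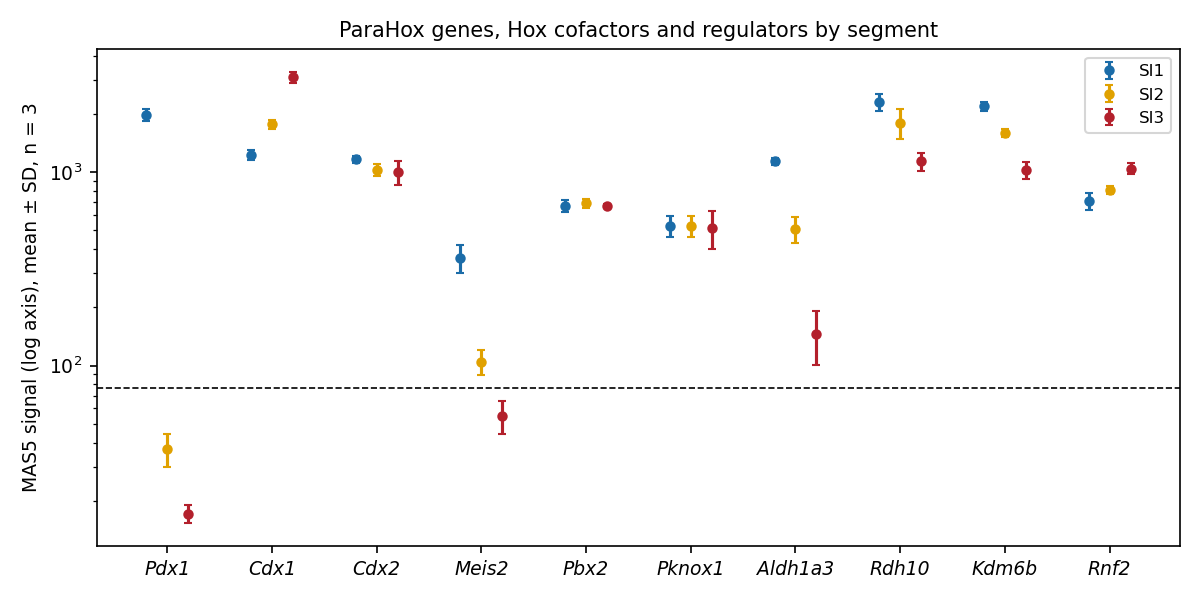
MAS5 signal on a log axis of ParaHox genes, Hox cofactors and regulators named in the text, as the mean and SD of 3 pools in each segment. The dashed line is the 95th percentile of the silent receptor genes. Pdx1, Meis2 and Aldh1a3 descend from SI1 to SI3, Cdx1 climbs from 1232 to 3108, and the SD bars of Pbx2 and of Pknox1 overlap across segments.

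Genes that flank the clusters were read beside them. From SI1 to SI3, 25.2% of all genes tested rose and 20.4% fell. With 3 or 4 flanking genes tested for each cluster, their counts say little against those shares. Beside Hoxb, 4 of 7 flanking genes were tested, and Nfe2l1 rose by 0.64 (adjusted p = 0.00365 by limma) while Skap1 and Snx11 differed by 0.17 and 0.03 and, with Cbx1, were not called. Beside Hoxa 2 of 3 tested genes fell, Snx10 by 0.83 and Hibadh by 0.46. Beside Hoxd 2 of 3 fell, Nfe2l2 by 0.92 and Mtx2 by 0.75. Beside Hoxc 3 of 4 rose, Cbx5 by 0.70, Smug1 by 0.62 and Hnrnpa1 by 0.57, and Copz1 fell by 0.27, where Hoxc6 itself was not called. Of the homeobox genes at the ends of Hoxa and Hoxd, Evx1 was at the level of silent genes. Evx2 was not tested and had means of 50.2 ± 37.7 in SI1, 78.9 ± 50.3 in SI2 and 92.5 ± 5.31 in SI3, above that level in SI2 and SI3.

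Scraped mucosa holds several cell types, so marker lists were read beside the rise of Hoxb6 and Hoxb3. In such bulk samples fewer cells of a type cannot be told apart from less RNA per cell. Epithelial markers, which check the labelled mucosa, had summed signals between 143369 and 170982 in SI1 and between 182597 and 190613 in SI3. Of 7 epithelial markers 2 rose, Epcam by 0.41 and Krt18 by 0.84, a share near the 25.2% of all genes tested that rose. Of 8 tested markers of fibroblasts and mesenchyme, 7 fell, beside 20.4% of all genes tested, and 0 rose by limma, beside 25.2%. Against a median of 0.07 over all genes tested from SI1 to SI3, these markers had a median of -1.66. Their summed signal was between 7416 and 8392 in SI1, between 5711 and 6445 in SI2, and between 2768 and 3283 in SI3. Dcn differed by 0.17 and was not called. Foxl1 was at the level of silent genes, and Lum, which was not tested, had means of 51.1 ± 24.1 in SI1 and 79.1 ± 3.54 in SI3, the latter just above that level. Dpt, also not tested, stood above that level at 108.3 ± 32.5 in SI1 and 118.0 ± 45.7 in SI3, a difference of 0.08. Col1a1 fell by 2.93, Pdgfra by 2.21 and Foxf1, a transcription factor of gut mesenchyme, by 1.81. The SI3 signal of Col1a1, 51.8 ± 30.5, lay below the 95th percentile of silent genes. The size of its fall therefore depends on background and the pseudocount. Smooth muscle markers fell in 2 of 7, with sums between 4139 and 4446 in SI1 and between 2990 and 3521 in SI3, and 0 were higher by limma. That share is near the 20.4% of all genes tested that fell. Endothelial markers fell in 4 of 6, beside 20.4% of all genes tested, and 0 were higher by limma, beside 25.2%. The sums of the endothelial list were between 1799 and 2059 in SI1 and between 612 and 834 in SI3. Hoxb6 and Hoxb3 rose between the same segments in which 7 of the 8 tested markers of fibroblasts and mesenchyme fell. The cell type behind the Hox signals was not tested.

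Other lists held members that rose in SI3. Their counts are to be read beside the 25.2% of all genes tested that rose and the 20.4% that fell. All 3 Paneth cell markers rose, with summed signals from 23599 to 29811 in SI1 and from 69602 to 80743 in SI3. Among 5 tested markers of B and plasma cells, 3 rose and 2 fell. The B cell gene Ms4a1 rose by 1.62 and Cd79b by 0.61, while Jchain of plasma cells fell by 1.44, and the summed signal was between 23088 and 24342 in SI1 and between 8982 and 10946 in SI3. The adipocyte gene Adipoq rose by 2.69, while Cidec fell by 1.43 and Lep was at the level of silent genes, with sums from 3024 to 3161 in SI1 and from 1726 to 2675 in SI3. Adipoq stood at 34.8 ± 19.1 in SI1, also at that level, so the size of its rise depends on background. In the list for enteric neurons and glia 7 of 10 genes were at the level of silent genes, and the 1 tested, Ret, rose by 0.88, with sums from 437.7 to 681.5 in SI1 and from 655.7 to 775.8 in SI3. Enteroendocrine markers rose in 5 of 10 and fell in 3, with sums from 17347 to 17940 in SI1 and from 22870 to 24298 in SI3. The largest rise was that of Nts, from 911 ± 119 in SI1 to 8856 ± 496 in SI3. Chgb, Cck and Gip fell, and Chga and Neurod1 were not called. All 7 lymphocyte markers of the T and intraepithelial list fell, with sums from 14021 to 18125 in SI1 and from 4552 to 6877 in SI3. Of 6 macrophage markers 5 fell and 1 rose, with sums from 13085 to 13571 and from 8562 to 10370. All 5 pancreas genes fell, from sums between 24090 and 30477 in SI1 to sums between 168.5 and 383 in SI3. The part of these cells in the Hox signals was not tested.

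**Figure D5:**
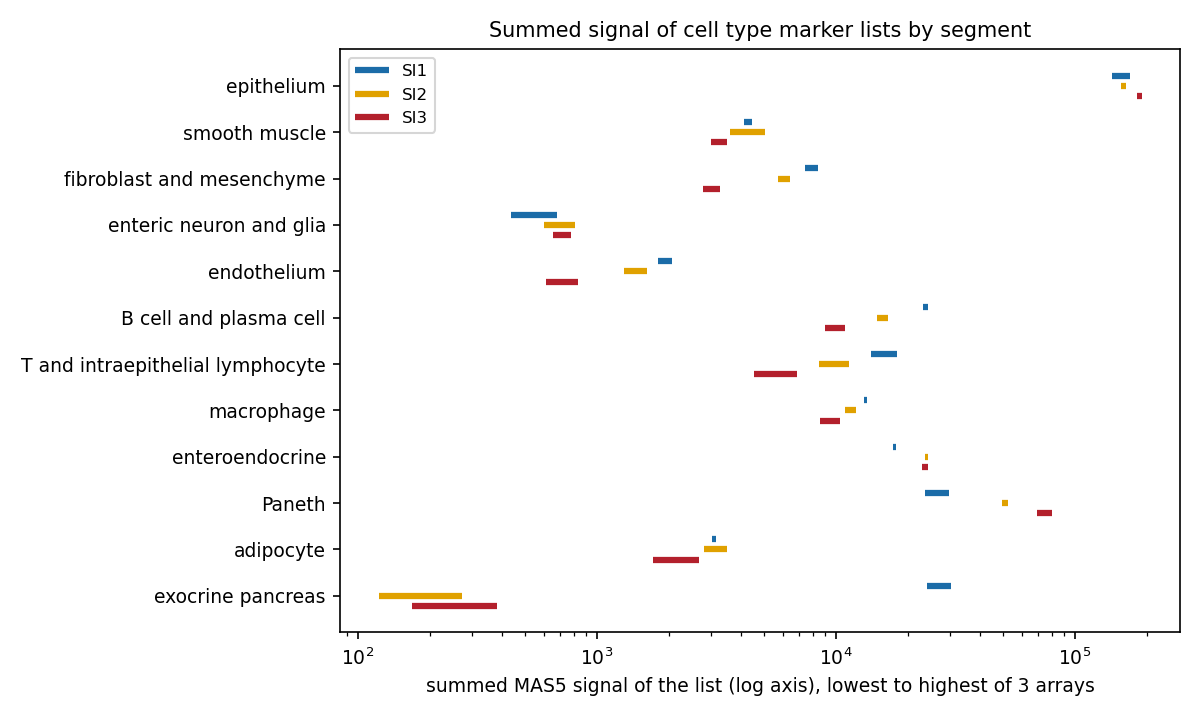
Summed MAS5 signal of each cell type marker list on a log axis, drawn as a bar from the lowest to the highest of the 3 arrays of a segment. From SI1 to SI3 the Paneth and epithelial bars move to the right, and the bars for mesenchyme, endothelium, T lymphocytes, macrophages and pancreas move to the left.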

How the data were processed

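The authors deposited linear signal intensity per probe set, credited to MAS5 by the submitters' processing notes with no version given, and their scaling, to a 2% trimmed mean of 500 on every array, was kept. After 64 control probe sets were left out, 45037 remained, 34945 of them with 1 gene symbol. Detection calls were not used, and odorant and pheromone receptor genes (71) stood in as a background. Values were analysed as log2(signal + 16) with limma 3.58.1 in R 4.3.3, with segment and diet pool as terms, because the 3 parts of a diet share mice. Moderated tests were two-sided, with Benjamini-Hochberg adjustment across 22519 probe sets, and counts of genes use the brightest probe set. Departures of arrays from their segment means had correlations of -0.05 to 0.15 for arrays sharing a pool, and of -0.13 to 0.05 for arrays of different pools. The fit was tested on simulated data.

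Hox genes were given array by array where they passed the filter or exceeded the 95th percentile of receptor genes, and otherwise by range, except where a gene is said to be chosen later. Of the other lists, up to 4 called members with the largest differences are named, with Pdx1, Cdx1 and Cdx2, and any further member was chosen after its values were seen. The Hox genes, lists and tests were chosen with earlier results of these data known. Plots were made in Python 3.11.15 with matplotlib 3.10.9. Precision is limited by having 9 arrays.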

Additional observations from a re-analysis of the deposited data

How the results depend on the processing

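Between SI3 and SI1, 2 Hox genes were higher. This count became 1 with a pseudocount of 1, 0 with the filter at the 60th percentile and 0 with the mean over all probe sets of a gene, and it lay between 1 and 2 with 1 pool left out. It was 3 with no filter, where Hoxb5 joined, and 3 with a pseudocount of 64, median centring or 6 arrays per pair, where Hoxa9 joined. The count of lower genes, 0, became 1 with no replicate block, 1 with the mean over all probe sets and 1 with 6 arrays per pair, Hoxb2 each time. Between SI2 and SI1, the count of 1 became 0 with a pseudocount of 1, 0 with no filter, 0 with the filter at the 60th percentile, 0 with quantile normalization and 0 with the mean over all probe sets, and it lay between 0 and 1 with a pool left out. Between SI3 and SI2, and also by the F test, the count of 2 became 1 with a pseudocount of 1, 0 with the filter at the 60th percentile, 1 with quantile normalization and 0 with the mean over all probe sets, and it lay between 1 and 2 with a pool left out. With a pseudocount of 1, the 60th percentile, quantile normalization, the mean over probe sets or the HF-PO pool left out, Hoxb6 fell below the recomputed filter and was untested. With the probe sets of the full filter kept, a setting added after the data were seen, Hoxb6 was called between SI3 and SI1 without each pool, with a pseudocount of 1 and with quantile normalization, while the count between SI2 and SI1 was 0 without the HF-PO pool and 0 without the HF-OO pool. Diet pairs set apart, 37 of 297 over all Hox genes (12.5%, beside 7.71% over all genes), became 10 at 2-fold, 63 with a pseudocount of 1 and 6 with a pseudocount of 64, so that count rests on signals near background. Over all probe sets, 9969 calls between SI3 and SI1 became 5596 without the HF-OO pool and 6476 without the HF-SO pool. Of the differences of single Hox genes that were called, 0 changed sign. Among those not called, Hoxa5 went from 0.37 to -0.16 with the mean over all probe sets, and Hoxc6 from -0.03 to 0.01 with median centring and to 0.14 without the HF-SO pool.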

Other observations

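Probe sets outside the gene count gave a few further values. Of 3 probe sets that the annotation shares between neighbouring Hox genes, that of Hoxb8 and Hoxb7 had means of 15.1 ± 10.6 in SI1, 27.7 ± 4.98 in SI2 and 37.6 ± 14.6 in SI3 (SD, n = 3 pools), and both probe sets for Hoxd4 and Hoxd3 had a mean of 24.7 in SI3. The 5 probe sets of the opposite-strand genes Hoxa11os, Hoxb5os and Hoxd3os1 had mean signals of at most 44.9, below the 76.6 of the silent receptor genes. Hoxb5os had means of 59.6, 46.4 and 28.6 in SI1, SI2 and SI3, and was not called (adjusted p = 0.347 by limma without a filter).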
